A study of Mus musculus with 3 samples.

Results

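Tight junction genes were followed in primary mammary tumor cultures exposed to RANK ligand (RANKL, written RL here). The 9 genes are the claudins Cldn1, Cldn2, Cldn3, Cldn4, Cldn7, Cldn8 and Cldn12, occludin (Ocln) and the scaffold protein ZO-1 (Tjp1). They were selected on measured values, since Cldn2 was among the largest falls with RL, so their RL over control values are a description and carry no test. They are 9 of 21743 genes and transcripts tested. The array holds 12 probes for them, and the scanner software called each of these probes well above background in both channels of all 3 arrays, so the filter on dim probes removed no member.

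The tumors came from MMTV-PyMT mice, in which the mouse mammary tumor virus promoter drives the polyoma middle T oncogene in mammary epithelium; no age is given. Cells of 3 tumors were grown with serum, antibiotics, EGF, insulin and cholera toxin, which both arms shared, and were left untreated (control) or given RL for 24 h. For its acinar cultures the study's methods describe cells of tumor transplants seeded on growth factor-reduced Matrigel, with RL given 24 h after plating. The labels state an RL dose of 1000 µg/mL, and the study's methods a lower one. Both cultures of a tumor shared a two-colour array, so each tumor gives 1 log2 ratio of RL over control. RL was in the Cy3 dye for tumors 1 and 3 and in Cy5 for tumor 2, so for tumor 2 the tumor and the order of the dyes cannot be told apart. The same slide carried the 3 arrays and the headers show a single scan. In each channel the signal of 54.6% to 56.2% of probes exceeded background by the scanner software's test.

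Tumor 2 stood apart from the other tumors before any gene was singled out. Over 21721 genes with a value on every array, the log2 ratios of tumors 1 and 3 had a Pearson r of 0.452, while tumor 2 had r = -0.110 with tumor 1 and r = -0.106 with tumor 3. These correlations run across genes, which are not independent replicates.

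Tight junctions seal the space between neighbouring epithelial cells near their apical side. Claudins span the membrane and set which ions pass, some as channels and some as barriers, while occludin lies in the same strands and ZO-1 ties them to actin. In the mammary gland these junctions tighten when milk secretion begins.

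Cldn2, which forms channels for cations and water, had lower values with RL in all 3 tumors. On probe 1, the probe used for the gene, the normalized log2 intensity in control cultures was 9.75, 10.46 and 8.78 in tumors 1, 2 and 3, and with RL it was 8.29, 9.95 and 7.99. Each tumor's RL value lay below its own control, and the ranges of the arms overlapped because the tumors started from different levels. The log2 RL over control was -1.46, -0.50 and -0.79, with a mean of -0.92 ± 0.49 (SD, n = 3; SE 0.28), or 0.529 times control. In bulk cultures, fewer cells of a type and less RNA per cell cannot be told apart. Among 21721 genes the Cldn2 mean ranked 3 from the lowest, after Lalba at -1.50 and Wap at -1.004 and before H19 at -0.77. This rank holds for probe 1 with all tumors, and with the probes of a gene averaged the Cldn2 mean was -0.60. Without tumor 1 the mean of probe 1 was -0.65, and without tumor 2 it was -1.12.

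The scanned spots of Cldn2 probe 1 stood far above their surroundings. In tumor 1 the control channel read 1077 over a background of 69 and the RL channel 201 over 32. In tumor 2, where the dyes were exchanged, the control channel read 999 over 32 and the RL channel 1307 over 69. In tumor 3 the control channel read 590.5 over 72 and the RL channel 179.5 over 34. These readings are not yet on a common scale, since Cy5 read brighter than Cy3 over the whole array, with medians of 96.5 to 100.5 against 42 to 45. After the scanner software's own dye correction the log2 ratios were -1.74, -0.56 and -0.98.

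The second Cldn2 probe had the same sign in each tumor as reported here, with a smaller size. Its control level was 6.91, 7.17 and 6.34 and its RL level was 6.33, 7.02 and 6.24. The log2 ratios were -0.58, -0.15 and -0.10, with a mean of -0.28 ± 0.26 (SD, n = 3). In tumor 3 its spots were close to background, with the control channel at 96 over 74 and the RL channel at 40 over 38. In tumor 1 the RL channel read 38 over 33 and the control channel 139 over 69.5. In tumor 2 the control channel read 88 over 36 and the RL channel 158 over 71. After the scanner software's own dye correction the log2 ratios of this probe were -1.725, -0.237 and -0.624. With the scanner software's background-subtracted signals the means of the probes were -1.12 and -0.89, and in the authors' ratios they were -0.999 and -0.50. When the probes of a gene were averaged, the Cldn2 mean was -0.60. With median centering in place of loess, which moved the median of all genes to -0.11, tumor 2 was at -0.03 on probe 1 and at 0.02 on probe 2.

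**Figure D1:**
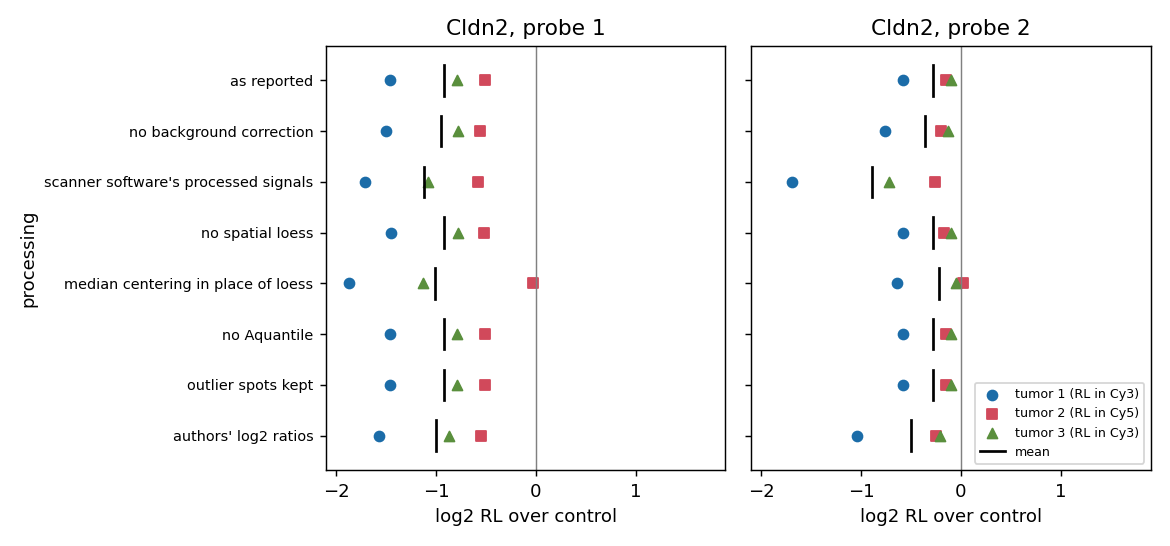
Log2 RL over control of both Cldn2 probes under 8 ways of processing the same 3 arrays, with points for tumors and a black line at the mean. Probe 1 had means from -1.12 to -0.92 and probe 2 from -0.89 to -0.22, and tumor 2 lay above 0 on probe 2 with median centering.

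Cldn8, a claudin of tight epithelia that limits the passage of cations, was the other member below 0 in all 3 tumors, except with median centering, where tumor 2 was at 0.40. Its control level was 9.46, 9.61 and 8.35 and its RL level was 8.88, 9.51 and 8.16 in tumors 1, 2 and 3. The log2 ratios were -0.58, -0.10 and -0.20, with a mean of -0.29 ± 0.25 (SD, n = 3). Tumor 1 was the farthest from 0, as for Cldn2, and leaving out 1 tumor gave Cldn8 means from -0.39 (without tumor 2) to -0.15 (without tumor 1).

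By counts, 2 of 9 members were below 0 in all 3 tumors, beside 13.3% of all genes, and 0 of 9 were above 0 in all 3, beside 14.2%. In the limma fit over all genes, 0 of 9 members were called higher (0.00460% of all genes were) and 0 of 9 lower (0.0230%). By rank product, which ranks genes within each tumor, 0 of 9 were called higher (0.166%) and 1 of 9, Cldn2, lower (0.230%). Nothing is read from these counts, since the same contrast chose the members.

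**Figure D2:**
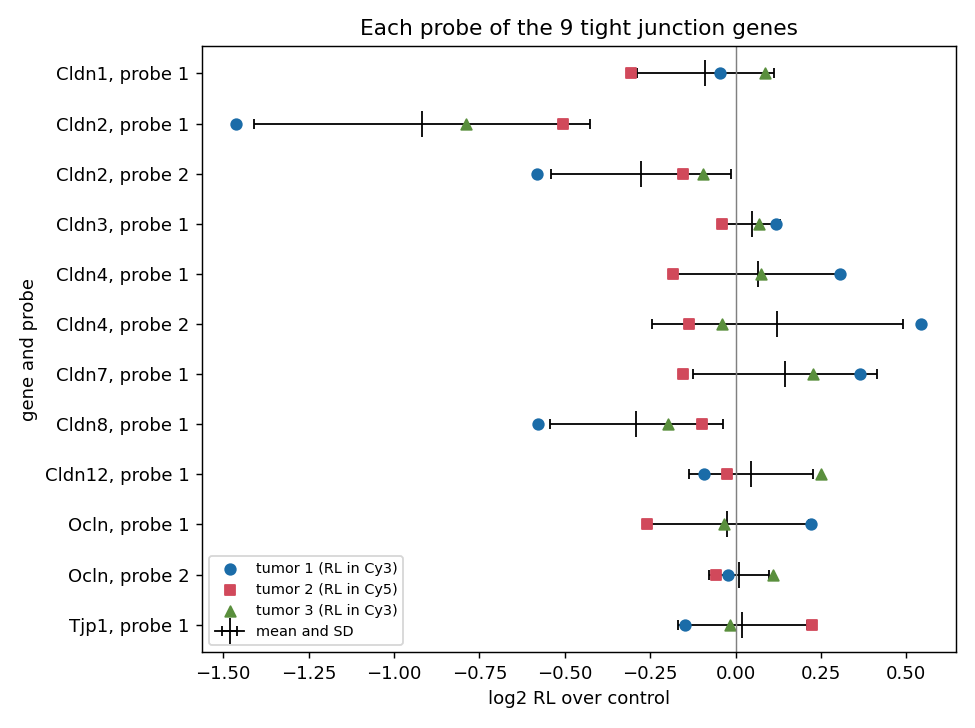
Log2 RL over control for each of the 12 probes of the 9 genes, with colored points for the 3 tumors and a black bar for the mean and SD. Both Cldn2 probes and the Cldn8 probe lie below 0 in every tumor under the processing reported (with median centering, tumor 2 is at 0.40 for Cldn8), and the other 9 probes have points on both sides of 0.

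Claudins that build the barrier, Cldn3, Cldn4 and Cldn7, had ratios on both sides of 0. Cldn3 had a control level of 14.88, 14.55 and 15.00 and an RL level of 15.00, 14.51 and 15.07. Its log2 ratios were 0.12, -0.04 and 0.07, with a mean of 0.05 ± 0.08 (SD, n = 3), so the arms differed by less than the spread between tumors. Cldn7 had a control level of 14.91, 14.48 and 14.92 and an RL level of 15.27, 14.33 and 15.14. Its log2 ratios were 0.37, -0.15 and 0.23, with a mean of 0.15 ± 0.27 (SD, n = 3). Tumor 2 was the tumor below 0 in both genes, and tumor 1 the highest. Leaving out 1 tumor gave means from 0.0148 (without tumor 1) to 0.0938 (without tumor 2) for Cldn3 and from 0.0359 to 0.30 for Cldn7, in the same order.

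Cldn4, a barrier claudin that Clostridium enterotoxin binds, has 2 probes that differed in sign in tumor 3. Probe 1 had a control level of 10.63, 9.98 and 12.22 and an RL level of 10.94, 9.80 and 12.30. Its log2 ratios were 0.31, -0.18 and 0.07, with a mean of 0.07 ± 0.25 (SD, n = 3). Probe 2 had 0.54, -0.14 and -0.04, with a mean of 0.12 ± 0.37 (SD, n = 3). On both probes the difference between arms was smaller than the spread between tumors. Without tumor 1 the mean of probe 1 was -0.06, without tumor 2 it was 0.19, and with the scanner's processed signals it was -0.02. With median centering the means of Cldn3, Cldn4 and Cldn7 were -0.18, -0.12 and -0.07, each on the other side of 0.

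Cldn1, whose loss opens the skin barrier, had a control level of 9.27, 8.91 and 9.63 and an RL level of 9.22, 8.61 and 9.72. Its log2 ratios were -0.04, -0.31 and 0.09, with a mean of -0.09 ± 0.20 (SD, n = 3). Tumor 2 was the lowest, and the mean was 0.0212 without it and -0.18 without tumor 3. Cldn12, a claudin without the usual tail for binding ZO proteins, had a control level of 11.51, 11.15 and 11.47 and an RL level of 11.42, 11.13 and 11.72. The ratios were -0.09, -0.03 and 0.25, with a mean of 0.04 ± 0.18 (SD, n = 3). Tumor 3 was the only tumor above 0, and the Cldn12 mean was -0.06 without it and 0.11 without tumor 1. With median centering the Cldn1 mean was -0.24 and the Cldn12 mean -0.10, and with the scanner's processed signals the Cldn12 mean was -0.02.

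Occludin, which joins claudins in the strands, gave ratios of both signs on each of its probes. Probe 1 had a control level of 9.41, 8.97 and 9.17 and an RL level of 9.63, 8.71 and 9.14. This gave log2 ratios of 0.22, -0.26 and -0.03, with a mean of -0.02 ± 0.24 (SD, n = 3). Probe 2 had -0.02, -0.06 and 0.11, with a mean of 0.01 ± 0.09 (SD, n = 3). The probes differed in sign in tumors 1 and 3, and the mean of probe 1 was 0.09 without tumor 2 and -0.15 without tumor 1. With median centering the Ocln mean was -0.19.

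Tjp1, the scaffold under the strands, had a control level of 11.80, 11.57 and 11.89 and an RL level of 11.65, 11.79 and 11.87. The log2 RL over control was -0.15, 0.22 and -0.02, with a mean of 0.02 ± 0.19 (SD, n = 3). Here tumor 2 was the tumor above 0, and the mean was -0.08 without it and 0.10 without tumor 1. With median centering the Tjp1 mean was -0.14. The median of the 9 mean log2 changes was 0.02, beside -0.000686 for all genes tested, and with median centering it was -0.18.

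The level of some members differed between tumors by more than between arms. These levels are the mean of both channels, which holds both dyes in each tumor. Cldn4 read 10.78, 9.89 and 12.26 in tumors 1, 2 and 3, a range of 2.37 on the log2 scale. Its second probe read 10.63, 9.81 and 12.23, in the same order of tumors. Cldn2 read 9.02, 10.21 and 8.39 on probe 1, a range of 1.82, and 6.62, 7.09 and 6.29 on probe 2. Cldn8 read 9.17, 9.56 and 8.25, a range of 1.30. So tumor 3 had the highest Cldn4 with the lowest Cldn2 and Cldn8, and tumor 2 had the lowest Cldn4 with the highest Cldn2 and Cldn8.

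The other members varied less between tumors. Cldn1 had a range of 0.92, Ocln of 0.68, Cldn7 of 0.68, Cldn3 of 0.50 and Cldn12 of 0.46. Tjp1 had a range of 0.20, the lowest of the 9. Over all genes the median range was 0.27, and 98.9%, 97.8%, 95.6% and 35.9% of genes had a smaller range than Cldn4, Cldn2, Cldn8 and Tjp1. Each tumor gave 1 array, so differences between tumors had no replicate to test them with.

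**Figure D3:**
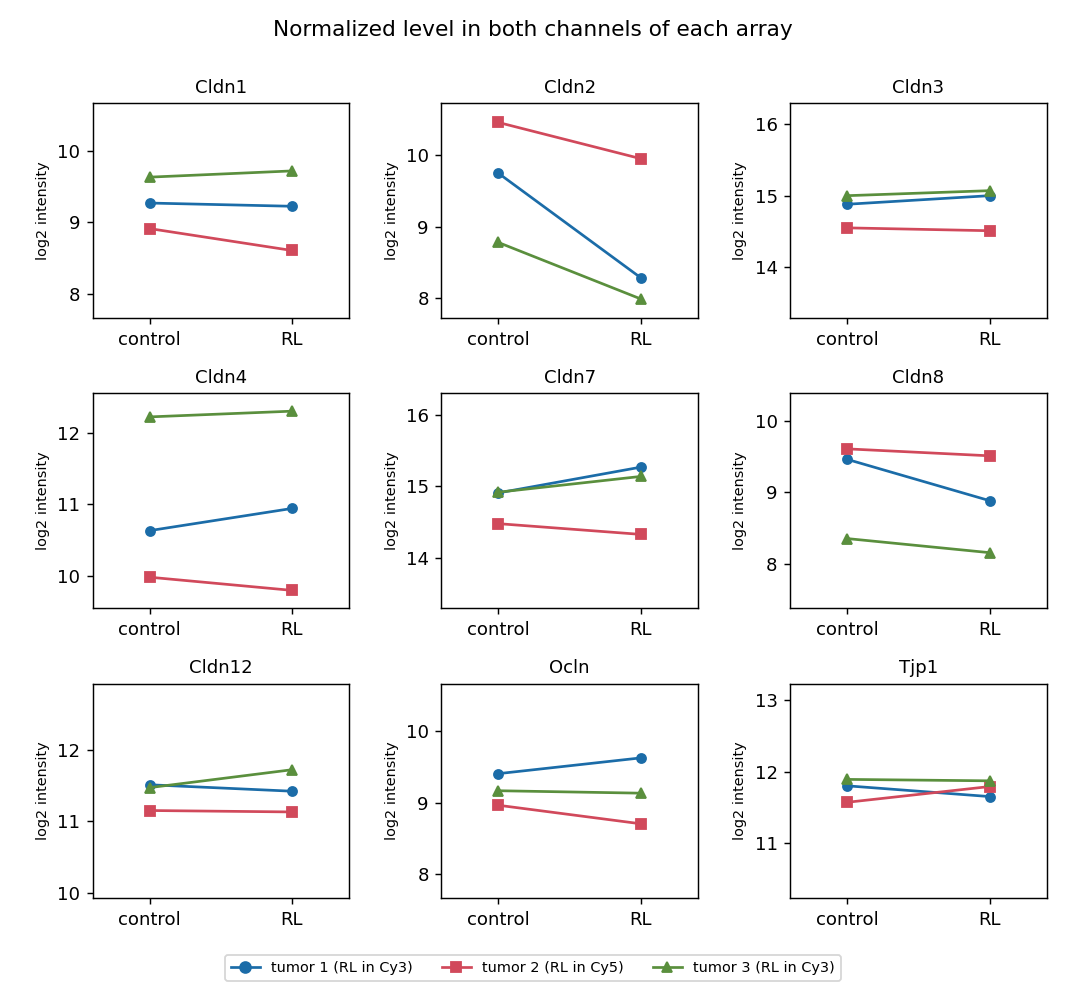
Normalized log2 intensity of the probe used for each gene in control and RL cultures, with a line joining both channels of each tumor's array and 3 log2 units on every vertical axis. Tumors are spread widest for Cldn4, where tumor 3 read 12.22 in control and tumor 2 read 9.98.

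The stretch before the start is shown for Cldn2, which had the lowest mean log2 change of the 9, and for Cldn4, which had the widest range between tumors. Sequences are from RefSeq on GRCm38.p6, where 8 of 9 members had an entry. The search covered TGANTCA (an AP-1 type motif), TTCNNNGAA (a STAT type motif) and the NF-kB consensus on both strands, and capitals mark the matches. The Cldn2 stretch is chrX:139800558-139800807 on the + strand and the Cldn4 stretch is chr5:134946935-134947184 on the - strand, each 250 bases in the direction of the gene.
Cldn2: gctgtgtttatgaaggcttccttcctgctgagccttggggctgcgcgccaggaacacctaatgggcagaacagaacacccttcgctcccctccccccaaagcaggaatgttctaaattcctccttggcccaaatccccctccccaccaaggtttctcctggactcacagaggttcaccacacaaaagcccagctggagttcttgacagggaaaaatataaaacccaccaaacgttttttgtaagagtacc
Cldn4: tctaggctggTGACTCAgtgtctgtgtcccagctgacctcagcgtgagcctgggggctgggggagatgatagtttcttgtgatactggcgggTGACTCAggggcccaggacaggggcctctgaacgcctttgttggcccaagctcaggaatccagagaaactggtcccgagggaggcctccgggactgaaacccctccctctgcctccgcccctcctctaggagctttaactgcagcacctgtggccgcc
The Cldn2 stretch held none of the 3 motifs, and the Cldn4 stretch held TGANTCA. Of 32851 promoters of this length, 6.75% held TGANTCA, 7.02% held TTCNNNGAA and 7.25% held the NF-kB consensus. A match describes letters and not a bound site. Cldn3 and Cldn4 are neighbours, with starts 39.3 kb apart on chromosome 5 and on opposite strands.

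Other tight junction genes outside the 9 were tested with limma over all genes. Of 68 listed, 67 had a probe and 55 were tested, and 0 of 55 passed an adjusted p of 0.05 by limma or a pfp of 0.05 by rank product, while at an unadjusted p under 0.05 limma had 1 higher (Tjp3) and 1 lower (Prkcz). Over all 21743 genes, 784 (3.61%) were higher and 774 (3.56%) lower at an unadjusted p under 0.05. In all 3 tumors 3 of 55 (5.45%) were above 0, beside 14.2% of all genes, and 14 (25.5%) were below 0, beside 13.3%; no test compared these shares. Of those 14, Cldn17, Jam3 and Wnk4 were well above background on 3 control arrays and 2 RL arrays, so they passed the filter through the arm where they were higher. Among the 51 well above background in all 6 channels, 11 (21.6%) were below 0 in all 3 tumors, beside 13.1% of all genes that were, and 3 (5.88%) above 0, beside 14.2%. The median log2 change of the 55 was -0.01. It was -0.13 with median centering (all genes: -0.11) and -0.07 with the scanner's processed signals (all genes: -0.03). Tjp3, the scaffold protein ZO-3, had log2 ratios of 0.68, 0.22 and 0.28, with a mean of 0.39 (limma SE 0.0965, n = 3, limma adjusted p = 0.368), above 0 in 3 of 3 tumors. Without tumor 2 the arrays left all had RL in Cy3, so RL and dye cannot be told apart there. In that setting 6.83% of all genes passed the threshold, and 3 of these 55 (5.45%) did. They were Tjp3 at 0.48, the polarity gene Pard6b at 0.37 and the adhesion molecule Jam2 at -0.39. With all tumors Pard6b was at 0.24 (limma adjusted p = 0.698, above 0 in 2 of 3 tumors; without tumor 1 0.073) and Jam2 at -0.27 (0.734, below 0 in 3 of 3). Pard6b had log2 ratios of 0.58, -0.00788 and 0.15. Jam2 had log2 ratios of -0.74, -0.0206 and -0.0444, and without tumor 1 its mean was -0.0325. With a dye term Tjp3 passed as well, at 0.35. In that setting more of all genes passed than as reported, with the counts given below under processing. Tjp3 was at 0.25 without tumor 1 and at 0.23 with median centering, and passed in neither.

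By list, the other claudins (7 of 17 tested) had a median of -0.05 and ran from Cldn10 at -0.11 and Cldn9 at -0.08 to Cldn15 at 0.03 and Cldn5 at 0.05. With the scanner's processed signals Cldn10 was at -0.62 and the median at -0.12. A further 9 listed claudins had a probe that missed the filter on dim probes, and Cldn25 had no probe. Other membrane proteins (11 of 12) had a median of -0.05, with Ildr1 of tricellular contacts at -0.17 (-0.0591 without tumor 1), Igsf5 at 0.05 and Lsr at 0.09; the second probe of Igsf5 was at -0.0926. Scaffold proteins (18 of 19) had a median of 0.02, with Amotl2 at -0.13 and Mpdz at -0.08. Regulators (19 of 20) had a median of -0.01, with the kinase Prkcz at -0.18, Spint2 at -0.18, Ovol1 at 0.12 and Grhl3 at 0.15; the other probes of Prkcz were at -0.02 and that of Spint2 at -0.00196. Adherens and desmosome genes (14 of 14) had a median of -0.02, with 0 past the threshold by limma or rank product and, unadjusted, 0 higher (3.61% of all genes were) and 1 lower (3.56%), desmoplakin (Dsp) at -0.19, whose second probe was at 0.11. In that list Ctnna1 was at -0.13 with no value in tumor 2 (-0.81 with median centering), Nectin2 at 0.09 and Nectin4 at 0.15. With median centering Cldn5, Igsf5, Lsr and Nectin2 were below 0.

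**Figure D4:**
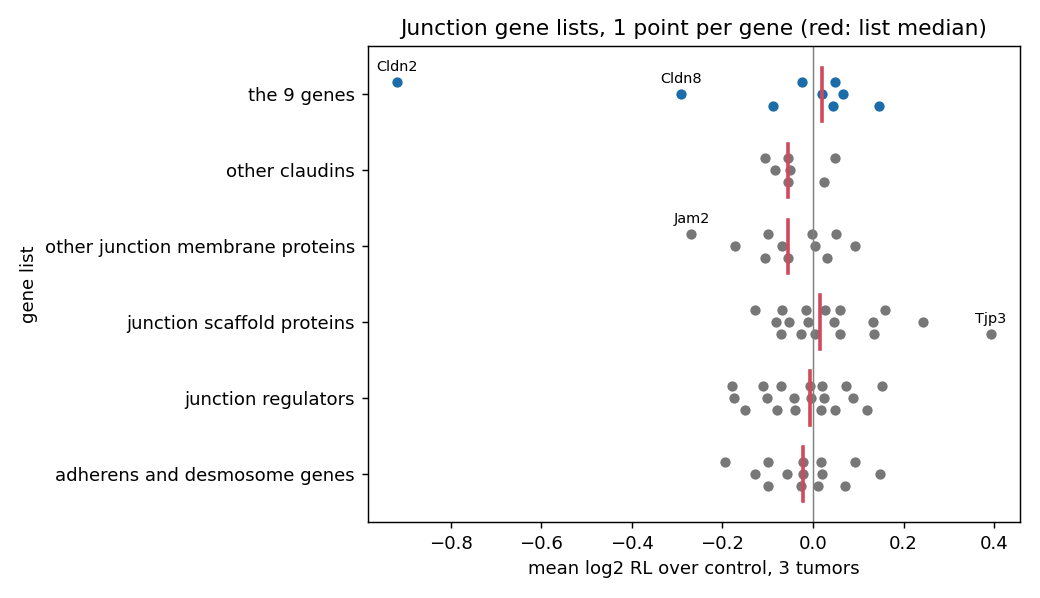
Mean log2 RL over control of each gene tested in 6 junction gene lists, 1 point per gene and 1 line per list, with a red mark at the list median. Cldn2 lies at -0.92 and Cldn8 at -0.29, while the genes of the other junction lists plotted lie between -0.27 (Jam2) and 0.39 (Tjp3).

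Entries nearest to Cldn2 were found by the Euclidean distance between log2 ratios over the 3 tumors, as a description. They were H19 at 0.44, Them5 at 0.47, Mgll at 0.57, an entry at 0.59 that the array design lists by an identifier absent from the reference, and the casein gene Csn1s1 at 0.62. The entry with that identifier may belong to a gene already named, so these are 5 entries and not shown to be 5 genes. It had log2 ratios of -0.933, -0.522 and -0.516, so tumors 2 and 3 were nearly equal. The entry for H19, an imprinted non-coding RNA, also kept its name in the file. It had -1.07, -0.34 and -0.91, so like Cldn2 this entry was closest to 0 in tumor 2.

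Milk genes held 3 of the 5 genes that fell by limma: Lalba (alpha-lactalbumin) at -1.50 (limma adjusted p = 0.00758), Wap at -1.004 (0.0357) and Csn1s1 at -0.72 (0.0357), each lower in 3 of 3 tumors. The other genes called by limma, named here after their values were seen, were Foxi1 at -0.76 and Lrg1 at -0.75 (both 0.0155, lower in 3 of 3 tumors) and Ubd at 0.92 (0.0165, higher in 3 of 3). Ubd was not well above background in all 6 channels. It passed the filter on dim probes through 1 arm only, so nothing is read from its call. Of 9 milk genes listed 7 were tested, with a median of -0.47. Their summed level, the log2 of the added intensities, was 17.42, 14.65 and 14.17 in control and 16.30, 14.42 and 13.61 with RL. In control Lalba alone was at 16.79, 12.65 and 10.12, and Btn1a1 alone at 14.03, 13.21 and 13.83. Btn1a1, named after its values were seen, had log2 ratios of -0.47, 0.51 and -0.49. The calls of all 6 genes were lost with the scanner's processed signals, with median centering and with the 6 channels unpaired, while the values kept their sign: with processed signals Lalba was at -1.53, Wap at -1.20, Csn1s1 at -0.77, Foxi1 at -0.76, Lrg1 at -0.83 and Ubd at 2.26, and with median centering they were at -1.74, -1.11, -0.93, -0.96, -0.94 and 0.89. Without the filter on dim probes the calls of Wap, Csn1s1 and Ubd were lost, with the authors' ratios that of Csn1s1 (-0.74), and with the strict filter Ubd had no value. Leaving out tumor 3 ended the calls of Csn1s1 (-0.69), Foxi1 (-0.77), Lrg1 (-0.78) and Ubd (1.03), and leaving out tumor 1 that of Csn1s1 (-0.66). RANK and NF-kB response genes (9 of 9 tested) had a median of 0.55 and 8 above 0 in all 3 tumors (14.2% of all genes were), with 0 past the limma threshold (0.00460%), 8 higher at an unadjusted p under 0.05 (3.61%) and 4 by rank product (0.166%). Those 4 were Nfkbia at 0.77, Nfkbie at 0.75, Traf1 at 0.70 and Nfkb2 at 0.62. Of these, Traf1 and Nfkb2 were named after their values were seen. Tnfaip3 was at 0.35 and the receptor gene Tnfrsf11a at 0.06. This list and the milk list were chosen with earlier results of these data known, so their counts are a description. Nfkbia, Nfkbie and Tnfaip3 passed the limma threshold with a dye term (0.70, 0.71 and 0.30) and without tumor 2 (0.93, 0.83 and 0.44). In both settings more of all genes passed than as reported. The share was 6.83% without tumor 2, where the arrays left all had RL in Cy3, so RL and dye cannot be told apart. The counts with a dye term, which fits a further term to the same few arrays, are given below under processing. Without tumor 1 Nfkbia, Nfkbie and Tnfaip3 were at 0.42, 0.47 and 0.20 and the list median at 0.33.

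Markers were read against the label of mammary tumor cultures, and their part in the values of the 9 genes was not tested. In the 6 marker lists that follow, 0 genes passed by limma or rank product, and at an unadjusted p under 0.05 limma had 0 higher (3.61% of all genes were) and 3 of 35 lower (3.56%). Without tumor 2, 3 of the 35 (8.57%, beside 6.83% of all genes) passed the limma threshold, Krt18 (-0.71), S100a8 (-0.38) and Fabp4 (0.27). The arrays left in that setting all had RL in Cy3. With a dye term S100a8 did (-0.36), in a setting where more of all genes passed than as reported (counts below, under processing). In tumor 2 itself Krt18 was at 0.42. S100a8 had log2 ratios of -0.78, -0.34 and 0.0166, with a mean of -0.16 without tumor 1 and -0.56 without tumor 3. The 9 luminal markers were each well above background in all channels, with a median of -0.04 (Krt18 -0.33, Elf5 -0.14, Epcam 0.05, Ehf 0.08) and a summed level of 18.27, 17.62 and 18.44 in control and 17.92, 17.82 and 17.97 with RL. Without Krt18 that sum was 16.83, 16.34 and 16.86 in control and 16.95, 16.16 and 16.76 with RL. The second Ehf probe was at 0.00159. Of 7 basal markers 6 were tested, with a median of -0.10 (Krt14 -0.19, Acta2 -0.13, Trp63 0.04, Krt17 0.19) and a summed level of 15.43, 16.28 and 16.98 in control and 15.59, 16.16 and 16.69 with RL; Myh11 missed the filter. Without tumor 1 the basal median was 0.0109 and Krt17 was at 0.00983, without tumor 3 Krt14 was at -0.0478, and the second Trp63 probe was at -0.0417. Fibroblast markers (8 of 8) had a median of -0.05 (Pdgfra -0.19, Col3a1 -0.09, Dcn 0.00478, Fap 0.09) and a summed level of 13.20, 12.17 and 14.15 in control and 12.92, 12.26 and 14.11 with RL. Leukocyte markers (8 of 8) had a median of -0.01 (S100a8 -0.37, Cd68 -0.22, Csf1r 0.03 with other probes at 0.05 and -0.0221, Ptprc 0.05) and a summed level of 14.13, 14.15 and 13.66 in control and 13.69, 14.02 and 13.60 with RL. In that sum S100a8 alone was at 13.31, 13.38 and 12.06 in control and 12.53, 13.04 and 12.08 with RL. Of 8 endothelial markers Pecam1 (-0.11), Cldn5 and Kdr (0.11) were tested, with summed levels of 11.08, 11.10 and 10.92 in control and 11.22, 11.05 and 11.08 with RL, while Cdh5, Tek, Tie1, Emcn and Vwf missed the filter. Of 5 adipocyte markers Fabp4 was tested, at 0.16, with a level of 7.44, 9.41 and 8.48 in control, and Adipoq, Plin1, Lep and Cidec missed the filter. With median centering Epcam, Ehf, Trp63, Krt17, Dcn, Kdr, Csf1r and Tnfrsf11a were below 0.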

How the data were processed

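Each two-colour array held RL and control RNA of 1 tumor. The deposited scanner files, made by the authors with Agilent Feature Extraction 10.7.3.1, hold spot, background and processed intensity in Cy3 and Cy5. The authors also deposited log2 ratios made with normexp, spatial and intensity loess and Aquantile; their direction was Cy5 over Cy3 (r with the ratios computed here 0.878, 0.875 and 0.880, across probes), and column medians of 0.00329, 0.000361 and 0.000888 show values centred near 0. They served as an alternative.

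From the median intensity, limma 3.58.1 in R 4.3.3 ran normexp (offset 50), intensity loess, then a spatial loess (span 0.1) and Aquantile, with control spots at weight 0 and outlier spots removed. Of 55681 probes, 28026 were named through RefSeq transcript accessions, and the others kept the name in the file. A probe stayed if well above background on all 3 arrays of an arm (29431 probes), and the brightest stood for a gene. Log2 RL over control was tested with lmFit and eBayes, adjusted by Benjamini-Hochberg over 21743 genes, threshold 0.05. Pairing comes from both cultures of a tumor sharing an array. Rank product (1000 permutations) was an alternative, beside those given under processing. Code was tested on simulated data. The number of arrays, 3, limits the precision.

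Members and gene lists were chosen with earlier results of these data known. Named genes were the members; in each other list the genes past the threshold, or else the highest and lowest means, 2 of each; the receptor Tnfrsf11a; and the 5 entries nearest to Cldn2. Cldn25 matched the reference as Cldn25-ps and Pals1 as Mpp5. Levels of different probes were compared only where the intensities of a list's genes were added and single genes set beside that sum.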

Additional observations from a re-analysis of the deposited data

How the results depend on the processing

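Counts of called genes depended on the setting. Genes higher with RL numbered 1 as reported, 6 without background correction, 2 from the authors' log2 ratios, 130 with a dye term and 36 by rank product, and 0 with processed signals, with median centering, without the dim filter, with the strict filter or with the 6 channels unpaired. Genes lower with RL numbered 5 as reported, 12 without background correction, 0 with processed signals, with median centering or with the 6 channels unpaired, 3 without the dim filter, 171 with a dye term and 50 by rank product. Leaving out 1 tumor gave 0 to 598 higher and 2 to 887 lower; 598 and 887 came without tumor 2, which leaves the arrays with RL in Cy3. Other tight junction genes past the threshold numbered 0 as reported, 1 with a dye term and 0 to 3 leaving out 1 tumor. The cause was not tested.

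The mean log2 change of Cldn2 ran from -1.12 to -0.60 over 14 alternatives and that of Cldn8 from -0.40 to -0.15. Over 126 values of the 9 genes, 12 changed sign, 0 of them in Cldn2 or Cldn8. The median of the 9 was -0.18 with median centering (all genes: -0.11) and -0.0553 to 0.0794 leaving out 1 tumor. Aquantile changes levels, not ratios. Of 217 list medians and values of the second Cldn2 probe, 23 moved beyond the spread. With median centering (all genes: -0.11) the list median was -0.16 for regulators and -0.20 for other membrane proteins. It was -0.17 for adherens and desmosome genes and -0.21 for luminal markers. Without tumor 1 the regulator median was -0.07. The list median changed sign for scaffold proteins and endothelial markers with median centering (-0.12 and -0.0599), for endothelial markers with the strict filter (-0.0040) and without tumor 2 (-0.0194), for regulators without tumor 3 (0.0164), for basal and fibroblast markers without tumor 1 (0.0109 and 0.0467), and for leukocyte markers with probes averaged (0.00335) and a dye term (0.00672).

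Of 686 values of 46 tested genes that the rule named, 625 kept sign and side of the threshold, 33 changed sign, 14 lost and 14 gained a call; Foxi1, Lrg1, Ubd and other genes named after their values were seen are not counted here. Leaving out a tumor changed the sign or moved the value by over 1.5 times in 37 of the 43 that were not past the threshold (26, 23 and 23 for tumors 1, 2 and 3). The sign changed with median centering in Cldn5 (-0.00384), Igsf5 (-0.141), Lsr (-0.125), Nectin2 (-0.0659), Epcam (-0.158), Ehf (-0.0895), Trp63 (-0.108), Krt17 (-0.0217), Dcn (-0.116), Kdr (-0.0599), Csf1r (-0.132) and Tnfrsf11a (-0.0966). It changed with processed signals in Trp63 (-0.0198), Dcn (-0.0229) and Csf1r (-0.00214), with a dye term in Cldn15 (-0.000788), Epcam (-0.0164) and Dcn (-0.00409), and with probes averaged in Igsf5 (-0.0206). Leaving out 1 tumor gave Cldn15 -0.0143 to 0.0770, Cldn5 -0.0194 to 0.0964, Igsf5 -0.0722 to 0.116, Mpdz -0.159 to 0.0439, Ovol1 -0.0135 to 0.195, Ctnna1 -0.26 to 0.00502, Nectin2 -0.00238 to 0.161, Epcam -0.0609 to 0.179, Acta2 -0.239 to 0.012, Col3a1 -0.224 to 0.0280, Dcn -0.0476 to 0.0394, Fap -0.0302 to 0.1597, Csf1r -0.0265 to 0.107 and Ptprc -0.0254 to 0.0951.

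The arrays were 3, with an unbalanced dye order. The second Cldn2 probe lay close to background in tumor 3 and in the RL channel of tumor 1. Its mean was -0.28 as reported, -0.36 without background correction and -0.89 with processed signals, which change background and dye correction together; the cause was not tested. Cldn5 and Ptprc were well above background on 2 of 3 control arrays, and Cldn17, Jam3 and Wnk4 on 2 of 3 RL arrays. One slide and scan gave no batch to compare.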
